A study of Homo sapiens with 12 samples.

Results

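The genes described here are the 10 that set the last step of glycolysis and the fate of its product, pyruvate: the pyruvate kinase gene PKM, the lactate dehydrogenase subunits LDHA and LDHB, the lactate transporters SLC16A1 and SLC16A3 with their chaperone BSG, and the pyruvate dehydrogenase kinases PDK1, PDK2, PDK3 and PDK4. They were taken by gene symbol from a deposited table of 61806 genes, each matched 1 row, and all 10 passed the filter on low counts, PDK4 through its K1 counts only. The series knocked down TRIM35, an E3 ubiquitin ligase with a tripartite motif and a reported binding partner of the PKM2 isoform, and its title names glycolysis among the processes of interest. The groups were K1 cells with TRIM35 siRNA, K1 cells with negative control siRNA, TPC-1 cells with TRIM35 siRNA and TPC-1 cells with negative control siRNA, with 3 RNA-seq libraries each, all harvested 24 h after transfection. K1 and TPC-1 are established human papillary thyroid cancer lines. The labels give control cells the genotype WT and treated cells that of a TRIM35 knockdown, a transient change in a bulk culture that is not a clone. Each line stands for itself only, so a difference between K1 and TPC-1 is one between these cultures.

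Pyruvate kinase turns phosphoenolpyruvate into pyruvate, and PKM yields the M1 and M2 isoforms by alternative splicing. Lactate dehydrogenase is a tetramer of LDHA and LDHB subunits that interconverts pyruvate and lactate, and the monocarboxylate transporters MCT1 (SLC16A1) and MCT4 (SLC16A3) carry lactate across the plasma membrane when basigin (BSG) escorts them there. The pyruvate dehydrogenase kinases phosphorylate and inhibit the mitochondrial pyruvate dehydrogenase complex, which holds pyruvate back from the citric acid cycle; LDHA, PDK1 and SLC16A3 are known targets of hypoxia-inducible factors, LDHA also of MYC, and PDK4 is a kinase best known from fasting tissues.

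The libraries held 16705044 to 22928861 counts. The title of 1 TPC-1 control library, replicate 3, gives another line number than its remaining labels and its column, which say TPC-1; it was kept, and calls that change without it are named. TRIM35 itself had 1.2, 1.49 and 1.53 FPKM in K1 cells with TRIM35 siRNA, against 1.51, 1.85 and 1.47 FPKM in K1 controls, and 2.34, 2.56 and 2.58 FPKM in TPC-1 cells with TRIM35 siRNA, against 2.86, 2.91 and 3.06 FPKM in TPC-1 controls (FPKM, counts scaled to exonic gene size and library total). The TPC-1 groups did not overlap and the K1 groups did. Fitted TRIM35 levels with siRNA were 87.9% of control in K1 (95% interval 68.5% to 113%) and 84.8% in TPC-1 (66.8% to 108%), and neither difference passed edgeR's quasi-likelihood test (adjusted p = 1 in both). The knockdown comparisons below are therefore between libraries labelled by siRNA in which lower TRIM35 mRNA was not called at 24 h. PAX8, a thyroid transcription factor, averaged 115 ± 6.71 FPKM in K1 controls and 19.6 ± 0.12 FPKM in TPC-1 controls (SD, n = 3 each), and FOXE1, another, 12.9 ± 0.93 FPKM in K1 controls and 1.49 ± 0.20 FPKM in TPC-1 controls. HHEX ran the other way, at 3.33 ± 0.20 FPKM in K1 controls and 5.13 ± 1.67 FPKM in TPC-1 controls (n = 3 each), whereas NKX2-1 was at 0 in all 12 libraries and TG, TSHR and SLC5A5 averaged at most 0.14 FPKM in any group. Summed FPKM of 5 leukocyte markers was 4.35 to 6.12 in K1 and 0.20 to 0.64 in TPC-1, that of 6 fibroblast markers 0.89 to 1.32 in K1 and 1.69 to 2.44 in TPC-1, and HBB and HBA1 were at 0. CD14 made up most of the leukocyte sum in K1 (4.84 FPKM with TRIM35 siRNA, 4.42 FPKM in controls), where CD3E was at 0, and PDGFRB most of the fibroblast sum in TPC-1 (1.73 FPKM with TRIM35 siRNA, 1.69 FPKM in controls), while the other 5 fibroblast markers averaged at most 0.36 FPKM in any group. The origin of the replicates is not given in the sources used here, so p-values reflect the library-to-library spread alone, and that spread may be technical.

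TRIM35 siRNA was compared with control siRNA in each line to ask whether these genes respond. In K1 none of the 10 passed an adjusted p under 0.05, and in TPC-1 none did either. The background was the same: edgeR called 0% of the 17447 genes tested in K1 and 0% in TPC-1. At an unadjusted p under 0.05, 0 of the 10 genes and 136 of all genes were reached in K1, and 1 of the 10, PDK4, and 337 of all genes in TPC-1. DESeq2 and limma also called 0 of the 10 in both lines. With the replicate number as a block in a fit of the TPC-1 libraries alone, 0.0551% of 14530 genes were called and 0 of the 9 genes tested, since PDK4 did not pass the filter on low counts there. In K1 the groups overlapped for all 10 genes, where 4.74% of all genes had groups that did not overlap, and in TPC-1 they overlapped for all 10 as well, against 4.6% of all genes. The median log2 fold change of the 10 was -0.03 in K1 and 0.01 in TPC-1, beside medians over all genes of -0.0039 in K1 and 0 in TPC-1.

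PKM, the binding partner's gene, had 166, 168 and 183 FPKM in K1 cells with TRIM35 siRNA, against 206, 177 and 171 FPKM in K1 controls. It had 282, 299.96 and 365 FPKM in TPC-1 cells with TRIM35 siRNA, against 257, 345 and 346 FPKM in TPC-1 controls. In both lines the ranges overlapped. The fitted PKM level with siRNA was 93.5% of control in K1 (95% interval 72.3% to 121%) and 99.9% in TPC-1 (77.3% to 129%). These are counts of the whole gene, so a change in the ratio of M1 to M2 transcripts could not be seen here.

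LDHA, which favours the formation of lactate, was at 93.8% of control in K1 (95% interval 72.4% to 122%) and at 107% in TPC-1 (82.9% to 139%). LDHB was at 96.0% of control in K1 (69.7% to 132%) and 96.9% in TPC-1 (70.4% to 133%). For the transporters, SLC16A1 was at 106% of control in K1 (88.1% to 128%) and 91.9% in TPC-1 (76.1% to 111%), and SLC16A3 at 89.0% in K1 (66.5% to 119%) and 112% in TPC-1 (84.1% to 150%). Basigin mRNA was at 94.0% of control in K1 (71.9% to 123%) and at 104% in TPC-1 (79.6% to 136%). Intervals of this width do not separate a small change from none. They come from the fit without a replicate block, though same-numbered TPC-1 libraries deviated together from their group means (r = 0.71, 0.31 and 0.80). For PKM in TPC-1 the SE was 0.17 without a block, 0.15 with it and 0.087 with the block in TPC-1 alone.

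Among the kinases, PDK1 was at 99.96% of control in K1 (95% interval 82.7% to 121%) and 101% in TPC-1 (84.2% to 122%), PDK2 at 106% in K1 and 100.5% in TPC-1, and PDK3 at 104% in K1 and 102% in TPC-1. PDK4 was the exception. In TPC-1 its mRNA was barely detected, with 4, 1 and 0 counts in the TRIM35 siRNA libraries, against 2, 6 and 8 counts in the controls, and the groups overlapped. At such counts the fitted log2 fold change in TPC-1 depended on the method, with -1.77 by edgeR and -0.44 and -0.06 by limma with pseudocounts of 0.1 and 1, and it ran by edgeR between -3.31 and -1.15 as each library was left out, so it gives no size of effect. In K1 PDK4 had 394, 593 and 452 counts with TRIM35 siRNA, against 489, 504 and 488 counts in controls, at 105% of control (77.3% to 143%).

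**Figure D1:**
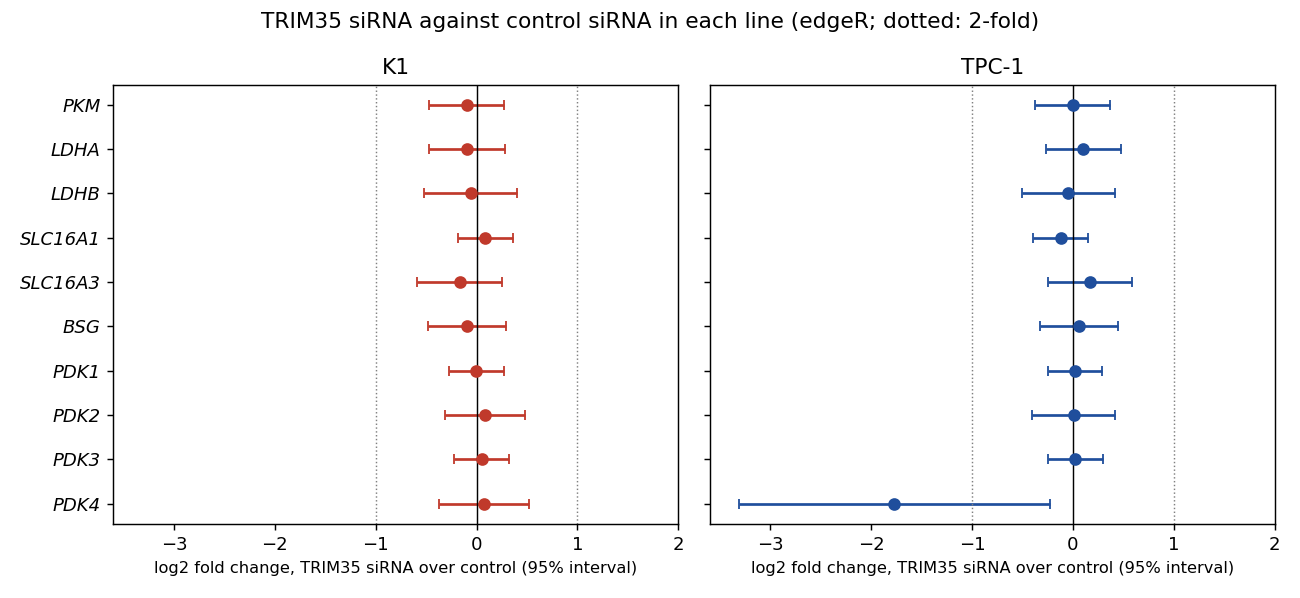
Log2 fold change of TRIM35 siRNA over control siRNA for each of the 10 genes (points) with its 95% interval (bars) from edgeR, in K1 on the left and TPC-1 on the right; dotted lines mark a 2-fold change. All intervals but that of PDK4 in TPC-1 include 0 and stay inside the dotted lines.

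In K1, 10 of the 10 intervals lay within a 2-fold change and 9 within a 1.5-fold change, where 76.4% and 56% of all genes did so. In TPC-1, where PDK4 was the exception, 9 lay within a 2-fold change and 8 within a 1.5-fold change, against 71.3% and 52.6% of all genes. For the difference between the lines, K1 minus TPC-1, edgeR called 0 of the 10 genes and 0% of all genes, with 1 of the 10, again PDK4, and 301 of all genes at an unadjusted p under 0.05, and DESeq2 and limma called 0 of the 10. Of those intervals 9 lay within a 2-fold change, against 60.3% of all genes, and 2 within a 1.5-fold change, against 29.7%. A 1.5-fold difference in response between K1 and TPC-1 was thus not excluded for most of the genes.

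More of these genes were called between K1 and TPC-1 than between siRNA and control libraries of a line. In the control libraries 7 of the 10 genes differed between K1 and TPC-1, of which 6 were lower in K1 and 1, PDK4, was higher, where 67.9% of all 17447 genes were called, 32.1% lower and 35.8% higher. In the TRIM35 siRNA libraries, none of which is in the control set, 6 of the 10 differed, 5 lower and 1 higher. There 68.3% of all genes were called, 32.4% lower and 35.9% higher. The share of the 10 genes called is thus near that of all genes. PKM, LDHA, LDHB, SLC16A3, PDK1 and PDK4 were called in both sets with the same direction, 6 of the 10, against 62.5% of all genes. Whether the sets come from separate cultures is not given. Both comparisons also used 1 shared estimate of the spread, so they are not independent repeats. The groups did not overlap for 7 of the 10 with TRIM35 siRNA and 6 with control siRNA, against 67.3% and 71.8% of all genes. LDHA, LDHB, PDK1 and PDK4 were called with at least a 2-fold difference in both sets, against 43.6% of all genes in the siRNA libraries and 43.5% in the control libraries. The median log2 fold change of the 10 was -0.47 in the control libraries and -0.54 in the siRNA libraries, beside 0.06 over all genes in each. In bulk RNA, fewer cells that express a gene and less of its RNA per cell cannot be told apart.

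**Figure D2:**
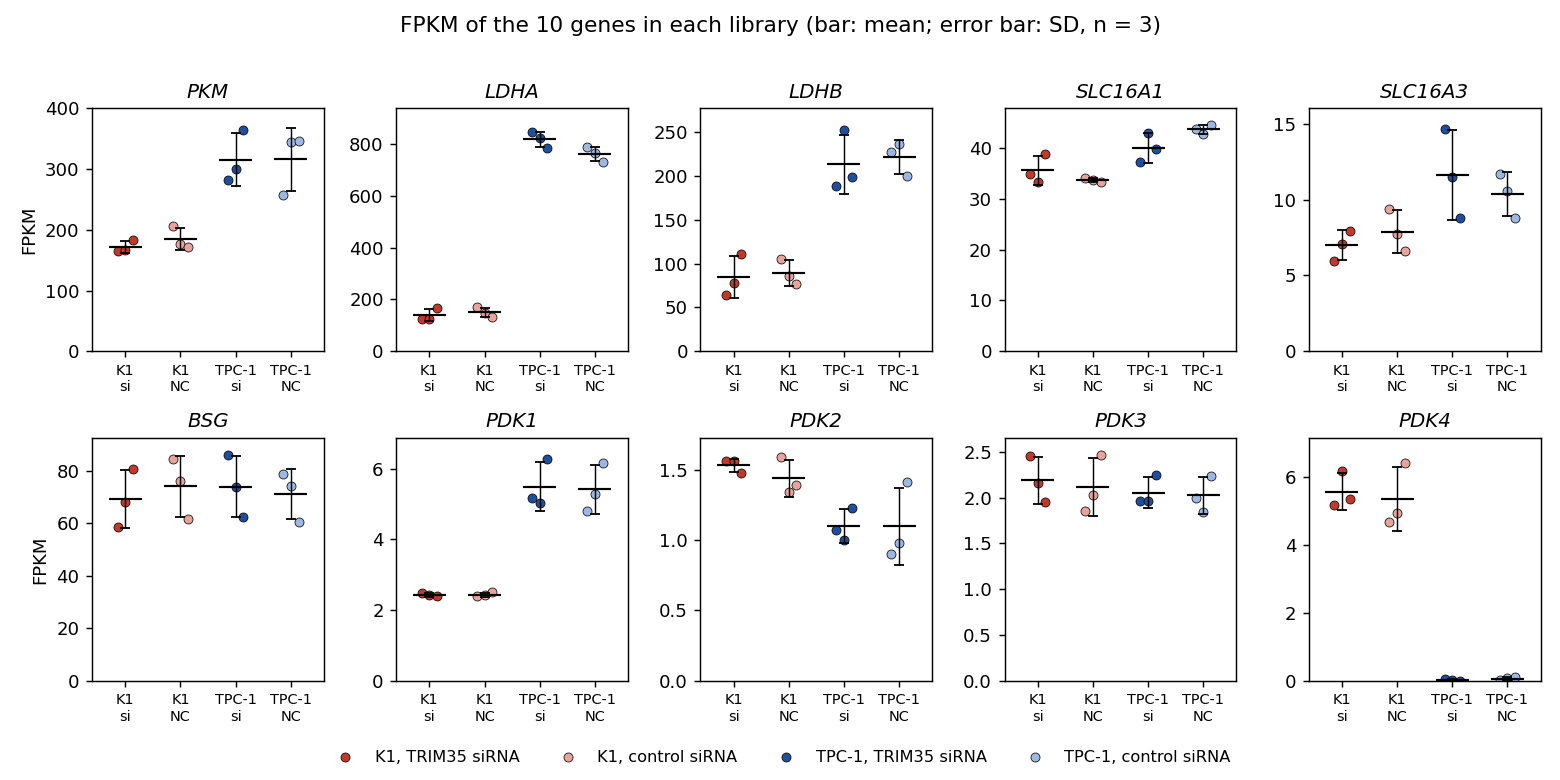
FPKM of each of the 10 genes in every library (points), with group means (horizontal bars) and SD (error bars, n = 3), for K1 with TRIM35 siRNA and control siRNA and TPC-1 with TRIM35 siRNA and control siRNA; each panel has its own linear axis from 0. LDHA, LDHB, PKM and PDK1 sit lower in all 6 K1 libraries than in all 6 TPC-1 libraries, PDK4 sits near 0 in TPC-1, and the siRNA and control points of a line overlap.

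PKM lies at chr15:72199029-72231819 on the minus strand. Its 6 values in K1, given above, ran from 166 to 206 FPKM and its 6 in TPC-1 from 257 to 365 FPKM, so the lines did not overlap. K1 held less PKM mRNA, with a log2 fold change of -0.96 (SE 0.18, adjusted p = 0.000164) in the siRNA libraries and -0.87 (SE 0.18, adjusted p = 0.000408) in the control libraries. Pseudogenes of PKM took at most 0.013% of the counts of PKM itself.

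LDHA, at chr11:18394560-18408425 on the plus strand, had the largest difference of the 6 genes that were lower in K1 with control siRNA. K1 had 125, 126 and 168 FPKM with TRIM35 siRNA, against 846, 823 and 785 FPKM in TPC-1 with TRIM35 siRNA. The control libraries had 169, 149 and 132 FPKM in K1, against 789, 765 and 733 FPKM in TPC-1. Every K1 library was below every TPC-1 library, and LDHA took 0.0753% to 0.102% of all counts in K1 libraries and 0.442% to 0.511% in TPC-1 libraries. The log2 fold change, K1 over TPC-1, was -2.63 (SE 0.19, adjusted p = 5.15e-09) in the siRNA libraries and -2.44 (SE 0.19, adjusted p = 1.19e-08) in the control libraries, that is 6.20-fold and 5.41-fold higher in TPC-1.

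LDHB, at chr12:21635342-21757857 on the minus strand, encodes the subunit that favours the use of lactate. It had 64.6, 78.2 and 111 FPKM in K1 and 189, 252 and 199 FPKM in TPC-1 with TRIM35 siRNA, and 106, 86.0 and 76.3 FPKM in K1 and 228, 236 and 199 FPKM in TPC-1 with control siRNA. The lines did not overlap in either set, and the log2 fold change was -1.41 (SE 0.22, adjusted p = 3.76e-05) with TRIM35 siRNA and -1.40 (SE 0.22, adjusted p = 4.17e-05) with control siRNA.

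LDHA differed more between the lines than LDHB did, and with it the balance of the subunits. LDHA made up 62.7 ± 1.98% of the summed LDHA and LDHB FPKM in K1 and 78.4 ± 2.05% in TPC-1 (SD, n = 6 libraries each). The difference was -15.8 percentage points, and an exact two-sided permutation test that kept TRIM35 siRNA and control libraries apart gave p = 0.005, the smallest it can give. With siRNA the share was 62.6 ± 2.94% in K1, against 62.8 ± 1.03% in K1 controls, and 79.4 ± 2.61% in TPC-1, against 77.5 ± 1.11% in TPC-1 controls (SD, n = 3 each; exact permutation p = 1 in K1 and 0.3 in TPC-1, where 3 against 3 libraries cannot go below 0.1). As 9 shares were tested in all, 3 for each of 3 sets of related genes, a Benjamini-Hochberg adjustment over them gave an adjusted p of 0.0225 for the difference between the lines.

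**Figure D3:**
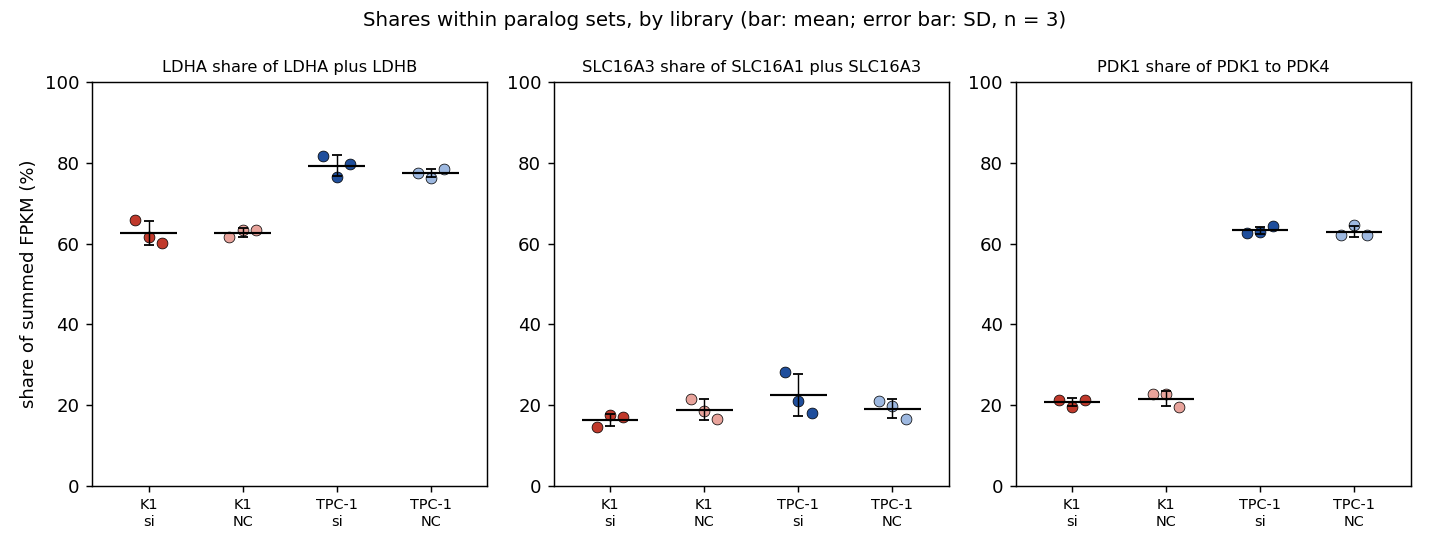
Share in percent of summed FPKM held by LDHA within LDHA plus LDHB, by SLC16A3 within SLC16A1 plus SLC16A3, and by PDK1 within PDK1 to PDK4, in each library (points), with the mean and SD of each group (bars, n = 3). The LDHA and PDK1 shares separate K1 from TPC-1 without overlap and the SLC16A3 share does not.

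For LDHA and PDK1, which are known to be induced through hypoxia response elements, and for PDK4, which was high in K1 alone, the promoter windows from RefSeq (GRCh38.p14, 250 bases before to 50 after a transcript start) are given for comparison of their motifs. Windows matched 9 of the 10 genes; SLC16A1 had none. The letters searched were ACGTG and GCGTG, both cores of hypoxia response elements, and CACGTG, the E-box bound by MYC, which contains ACGTG on either strand. Capitals mark matches on either strand. The upstream LDHA window, chr11:18394313-18394612 on the plus strand, covers the start of the deposited gene.
LDHA upstream: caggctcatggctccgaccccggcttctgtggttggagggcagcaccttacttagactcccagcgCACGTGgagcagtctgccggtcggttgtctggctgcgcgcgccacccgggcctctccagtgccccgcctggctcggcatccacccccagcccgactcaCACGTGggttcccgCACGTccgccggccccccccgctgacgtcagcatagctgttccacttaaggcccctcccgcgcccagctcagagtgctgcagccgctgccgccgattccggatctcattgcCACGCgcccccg
The downstream LDHA window is chr11:18396101-18396400 on the plus strand.
LDHA downstream: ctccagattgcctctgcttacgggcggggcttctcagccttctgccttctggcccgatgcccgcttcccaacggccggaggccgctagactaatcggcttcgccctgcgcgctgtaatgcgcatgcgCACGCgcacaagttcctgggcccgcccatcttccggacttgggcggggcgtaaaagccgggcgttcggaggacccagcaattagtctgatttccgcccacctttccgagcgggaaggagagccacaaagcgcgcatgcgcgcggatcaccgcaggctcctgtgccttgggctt
The PDK1 window is chr2:172555840-172556139 on the plus strand.
PDK1: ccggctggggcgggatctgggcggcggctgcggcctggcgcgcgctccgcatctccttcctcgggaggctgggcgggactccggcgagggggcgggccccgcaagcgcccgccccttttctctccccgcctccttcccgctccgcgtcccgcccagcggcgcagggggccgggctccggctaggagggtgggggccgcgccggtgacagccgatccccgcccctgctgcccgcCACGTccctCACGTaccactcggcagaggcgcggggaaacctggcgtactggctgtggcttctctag
The PDK4 window is chr7:95596467-95596766 on the minus strand.
PDK4: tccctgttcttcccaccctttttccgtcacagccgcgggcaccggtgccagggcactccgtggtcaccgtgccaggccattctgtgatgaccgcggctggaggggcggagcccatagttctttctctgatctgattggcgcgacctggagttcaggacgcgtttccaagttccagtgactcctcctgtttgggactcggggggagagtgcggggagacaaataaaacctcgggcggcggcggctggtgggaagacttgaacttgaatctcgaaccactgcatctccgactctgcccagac
The upstream LDHA window held 5 matches to ACGTG, of which 4 lay inside 2 copies of CACGTG, and 1 to GCGTG; the downstream window held 1 to GCGTG. The PDK1 window held 2 to ACGTG, a second PDK1 window none, and the PDK4 window none of the 3 motifs. Of the other matched genes, PKM and LDHB held 1 match to GCGTG each in 1 window and PDK3 1 to ACGTG and 1 to GCGTG in 1 window. BSG held 2 to ACGTG, 4 to GCGTG and 1 to CACGTG over 2 windows, PDK2 2 to ACGTG, 1 to GCGTG and 1 to CACGTG over 3 windows, and SLC16A3 2 to ACGTG and 4 to GCGTG over 5 windows. In BSG and in PDK2 the 2 matches to ACGTG lay inside the 1 copy of CACGTG. Matches were found in genes called between the lines and in BSG, PDK2 and PDK3, which were not called in the main fit. Whether the motifs bear on the differences between the lines was not tested. Over all 35116 promoter windows of this length, 21.4% held ACGTG, 36.5% GCGTG and 7.26% CACGTG. These shares are per window, so matches given over several windows of a gene are not on the same scale. A match of this kind describes letters only, and occupancy was not measured.

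The lactate transporters differed less between the lines. SLC16A1, at chr1:112911847-112957593 on the minus strand, encodes MCT1. It had 34.8, 33.3 and 38.9 FPKM in K1 and 37.2, 43.0 and 39.9 FPKM in TPC-1 with TRIM35 siRNA, and 34.2, 33.7 and 33.4 FPKM in K1 and 43.7, 42.8 and 44.5 FPKM in TPC-1 with control siRNA. The control groups were apart and the siRNA groups overlapped. The log2 fold change was -0.26 (SE 0.13, adjusted p = 0.0861) in the siRNA libraries and -0.47 (SE 0.13, adjusted p = 0.0044) in the control libraries. Without TPC-1 siRNA replicate 1 the siRNA value was -0.35 (adjusted p = 0.0259), and without K1 siRNA replicate 3 it was -0.38 (adjusted p = 0.0115), so that either library decided whether SLC16A1 was called. The antisense gene SLC16A1-AS1 held a median of 4.84% as many counts as SLC16A1.

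SLC16A3, at chr17:82217934-82261129 on the plus strand, encodes MCT4, the transporter of strongly glycolytic cells. It had 5.97, 7.07 and 7.95 FPKM in K1 and 14.7, 11.5 and 8.76 FPKM in TPC-1 with TRIM35 siRNA, which did not overlap. With control siRNA it had 9.38, 7.72 and 6.58 FPKM in K1 and 11.7, 10.6 and 8.79 FPKM in TPC-1, and K1 replicate 1 lay above TPC-1 replicate 3. The log2 fold change was -0.82 (SE 0.20, adjusted p = 0.00186) in the siRNA libraries and -0.48 (SE 0.20, adjusted p = 0.0419) in the control libraries. That control value lost its call under limma (adjusted p = 0.0975 with a pseudocount of 0.1 and 0.0971 with a pseudocount of 1). It also lost it without TPC-1 control replicate 1 (-0.38, adjusted p = 0.138) or 2 (-0.46, 0.0931), without K1 control replicate 2 (-0.45, 0.106) or 3 (-0.34, 0.171), without TPC-1 siRNA replicate 2 (-0.48, 0.0518) and without K1 siRNA replicate 2 (-0.48, 0.0522). SLC16A3 overlaps CSNK1D on the other strand, which held 1468 to 3808 counts, a median of 145% of those of SLC16A3, and whether counting used strand is not given in the sources used here; its values are uncertain for that reason.

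SLC16A3 held 17.6 ± 2.32% of the summed transporter FPKM in K1 and 20.8 ± 4.08% in TPC-1 (SD, n = 6 each), a difference of -3.18 points that was within the spread between libraries (exact permutation p = 0.135). With siRNA the share was 16.4 ± 1.53% in K1, against 18.9 ± 2.54% in K1 controls (exact permutation p = 0.3, n = 3 each), and 22.5 ± 5.27% in TPC-1, against 19.1 ± 2.37% in TPC-1 controls (exact permutation p = 0.4, n = 3 each). Between same-numbered TPC-1 libraries the SLC16A3 share was higher with siRNA in 3 of 3 pairs, as was the LDHA share, and an exact sign-flip test over the pairs gave p = 0.25 for either, the smallest that 3 pairs can give.

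BSG, at chr19:571277-583494 on the plus strand, encodes basigin, which MCT1 and MCT4 need to reach the membrane. K1 had 58.7, 68.0 and 80.7 FPKM and TPC-1 85.9, 73.7 and 62.4 FPKM with TRIM35 siRNA, and K1 had 84.3, 76.3 and 61.6 FPKM and TPC-1 78.7, 74.1 and 60.4 FPKM with control siRNA. The lines overlapped throughout. Levels in K1 were 88.4% of those in TPC-1 with TRIM35 siRNA (95% interval 67.7% to 116%) and 98.0% with control siRNA (75.0% to 128%), neither past the test (adjusted p = 0.399 and 0.895). Embigin (EMB), the other known partner of MCT1, was in contrast nearly absent from K1, with 29 counts summed over the K1 siRNA libraries, against 8879 in TPC-1, and 50 over the K1 controls, against 8072 in TPC-1. Scaled to library totals that is 280-fold higher in TPC-1 with TRIM35 siRNA and 184-fold with control siRNA (edgeR log2 fold change, K1 over TPC-1, -8.20 with SE 0.30 and adjusted p = 1.65e-12, and -7.60 with SE 0.28 and adjusted p = 2.05e-12).

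Of the 4 pyruvate dehydrogenase kinases, PDK1 was lower and PDK4 higher in K1 than in TPC-1. PDK1, at chr2:172555373-172608669 on the plus strand, is the kinase best known from hypoxic cells. It had 2.48, 2.42 and 2.39 FPKM in K1 and 5.17, 5.03 and 6.29 FPKM in TPC-1 with TRIM35 siRNA, and 2.39, 2.43 and 2.5 FPKM in K1 and 4.81, 5.28 and 6.17 FPKM in TPC-1 with control siRNA. No K1 library reached any TPC-1 library. The log2 fold change was -1.27 (SE 0.13, adjusted p = 3.67e-07) in the siRNA libraries and -1.25 (SE 0.13, adjusted p = 4.42e-07) in the control libraries, that is 2.41-fold and 2.38-fold higher in TPC-1.

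PDK4, at chr7:95583499-95596516 on the minus strand, went the opposite way. It had 5.17, 6.18 and 5.37 FPKM in K1 and 0.05, 0.01 and 0.00 FPKM in TPC-1 with TRIM35 siRNA, and 4.69, 4.93 and 6.43 FPKM in K1 and 0.02, 0.07 and 0.10 FPKM in TPC-1 with control siRNA. Summed over 3 libraries the counts were 1439 in K1 and 5 in TPC-1 with TRIM35 siRNA, and 1481 in K1 and 16 in TPC-1 with control siRNA. Scaled to library totals K1 thus held 314 times (95% Poisson interval 134 to 969) the TPC-1 level with TRIM35 siRNA and 81.4 times (49.98 to 143) with control siRNA, intervals that cover counting error only. The edgeR log2 fold change was 8.08 (SE 0.39, adjusted p = 4.96e-11) in the siRNA libraries and 6.24 (SE 0.33, adjusted p = 1.51e-10) in the control libraries. As each library was left out it ran from 7.45 (without TPC-1 siRNA replicate 3) to 9.62 (without TPC-1 siRNA replicate 1) in the siRNA libraries and from 5.85 to 6.65 in the control libraries. By limma, whose pseudocount bounds the size for a gene near 0, it was 5.58 in the siRNA libraries and 5.08 in the control libraries with a pseudocount of 0.1, and 2.69 in the siRNA libraries and 2.57 in the control libraries with a pseudocount of 1.

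PDK2 and PDK3 differed little. PDK2, at chr17:50094737-50112152 on the plus strand, had 1.56, 1.56 and 1.48 FPKM in K1 and 1.07, 1.00 and 1.23 FPKM in TPC-1 with TRIM35 siRNA, and 1.59, 1.34 and 1.39 FPKM in K1 and 0.90, 0.98 and 1.41 FPKM in TPC-1 with control siRNA. The siRNA groups did not overlap, and the control groups did through TPC-1 control replicate 3. Its log2 fold change was 0.38 (SE 0.19, adjusted p = 0.0857) in the siRNA libraries and 0.30 (SE 0.19, adjusted p = 0.173) in the control libraries. Without TPC-1 control replicate 3, the library with the differing title, the control value was 0.52 (adjusted p = 0.0238) and 8 of the 10 genes were called in that comparison, and under limma the siRNA value passed (adjusted p = 0.0335 and 0.0329 with pseudocounts of 0.1 and 1). The opposite-strand gene SAMD14 held a median of 26.0% as many counts as PDK2. PDK3, at chrX:24465244-24550466 on the plus strand, had 2.46, 2.16 and 1.95 FPKM in K1 and 1.96, 1.96 and 2.25 FPKM in TPC-1 with TRIM35 siRNA, and 1.86, 2.03 and 2.47 FPKM in K1 and 2.00, 1.84 and 2.24 FPKM in TPC-1 with control siRNA. The lines overlapped, and K1 levels of PDK3 were 99.5% of those in TPC-1 with TRIM35 siRNA (95% interval 82.5% to 120%) and 97.4% with control siRNA (80.8% to 118%).

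**Figure D4:**
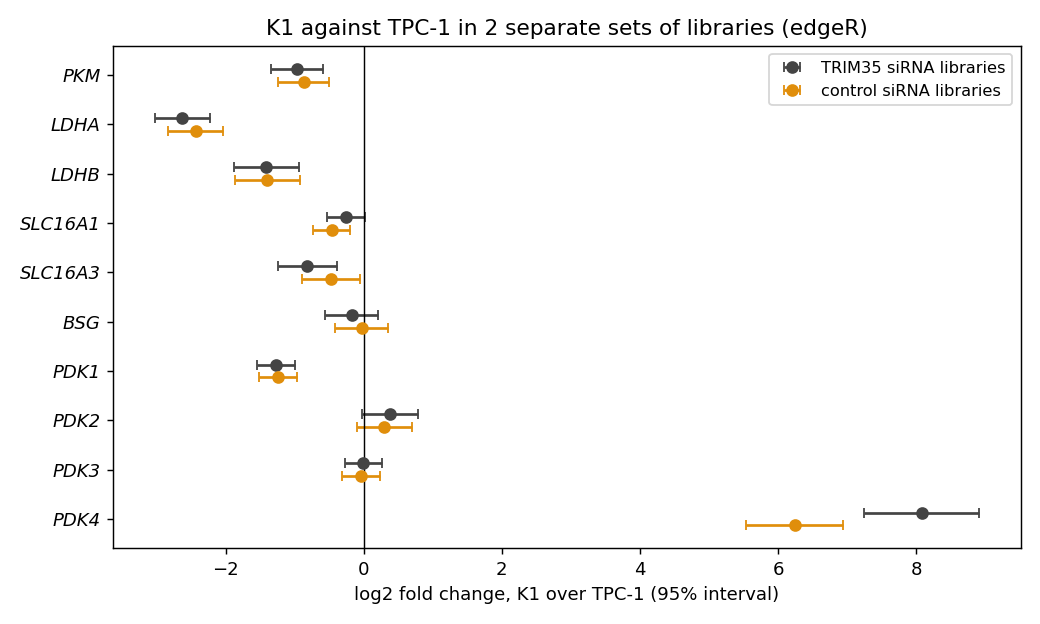
Log2 fold change of K1 over TPC-1 for each of the 10 genes (points) with its 95% interval (bars) from edgeR, in the TRIM35 siRNA libraries and in the control siRNA libraries, which share no library. LDHA, LDHB, PDK1 and PKM lie left of 0 and PDK4 far to the right in both sets, while BSG and PDK3 span 0.

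PDK1 made up 21.2 ± 1.38% of the summed FPKM of the kinases in K1 and 63.2 ± 1.07% in TPC-1 (SD, n = 6 each), a difference of -42.0 points (exact two-sided permutation p = 0.005, the smallest the test can give; adjusted p = 0.0225 over the 9 shares). PDK4 held 47.5 ± 2.96% in K1 and 0.24 ± 0.32% in TPC-1 with TRIM35 siRNA, and 46.9 ± 2.99% in K1 and 0.71 ± 0.40% in TPC-1 with control siRNA (SD, n = 3 each). The summed FPKM of the kinases was 11.7 ± 0.57 in K1 and 8.67 ± 0.96 in TPC-1 with TRIM35 siRNA, and 11.4 ± 1.25 in K1 and 8.61 ± 1.16 in TPC-1 with control siRNA. With siRNA the PDK1 share was 20.8 ± 0.96% in K1, against 21.6 ± 1.80% in K1 controls, and 63.3 ± 0.94% in TPC-1, against 63.0 ± 1.39% in TPC-1 controls (n = 3 each, exact permutation p = 0.6 in both lines).

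The order of the 10 by FPKM differed between the lines. In TPC-1 it was LDHA, PKM, LDHB, BSG, SLC16A1, SLC16A3, PDK1, PDK3, PDK2 and PDK4 with either siRNA, and no neighbours in that order had overlapping ranges over the 3 libraries. In K1 PKM stood first and LDHA second, and their ranges overlapped in the siRNA libraries but not in the control libraries. LDHB and BSG overlapped in both K1 groups, as did PDK1 and PDK3, and PDK4 stood seventh, directly after SLC16A3, with which it overlapped in the siRNA libraries.

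Ranks and shares across genes depend on the length used. The exonic size in the deposited table joins the exons of all transcripts and was 1.27 times (PDK4) to 9.09 times (PDK3) the length of the principal transcript in GENCODE 29. Where a gene has several principal transcripts, their median length was used. PDK1 has 2, of 2990 and 14193 bases, with a median of 8591.5. The kinase shares, their order and the kinase sums on this scale rest on that choice, and neither length alone was tried. Divided by the principal length instead, PDK3 held the largest kinase share in each group, with 59.1% in K1 and 62.4% in TPC-1 with TRIM35 siRNA and 59.0% in K1 and 62.3% in TPC-1 with control siRNA. On that scale PDK1 held 12.5% in K1 and 31.6% in TPC-1 with TRIM35 siRNA, and PDK4 21.1% in K1 and 0.087% in TPC-1. The LDHA share was then 71.4% in K1 and 85.2% in TPC-1 with TRIM35 siRNA, and 71.6% in K1 and 83.8% in TPC-1 with control siRNA. The summed kinase level per kilobase of principal transcript was 33.6 ± 2.38 in K1 and 30.0 ± 2.86 in TPC-1 with TRIM35 siRNA, and 32.6 ± 4.01 in K1 and 29.6 ± 3.29 in TPC-1 with control siRNA (SD, n = 3 each), where the control groups differed by less than the SD, so the order of the lines in total kinase mRNA is not settled. Fold changes of a single gene between libraries do not depend on the length chosen for scaling. Whether the libraries differ in which transcripts of a gene they hold was not tested.

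Libraries of 1 group differed among themselves in ways these genes shared. In K1, control replicate 1 and siRNA replicate 3 were highest and siRNA replicate 1 and control replicate 3 low for LDHA, LDHB, BSG, SLC16A3 and PKM. On log2 CPM (counts scaled to the library total, by TMM) relative to the mean of the line, LDHB was at 0.49 in K1 siRNA replicate 3 and at -0.46 in K1 siRNA replicate 1, a 1.93-fold range. PDK1 in contrast varied over a 1.09-fold range in the 6 K1 libraries. In TPC-1 the spread of LDHA was small, with a 1.15-fold range, and that of PKM and PDK1 larger, with 1.44-fold and 1.33-fold ranges. PKM, PDK1, PDK2 and PDK3 were high in both TPC-1 libraries numbered 3, where SLC16A3 and BSG were low.

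**Figure D5:**
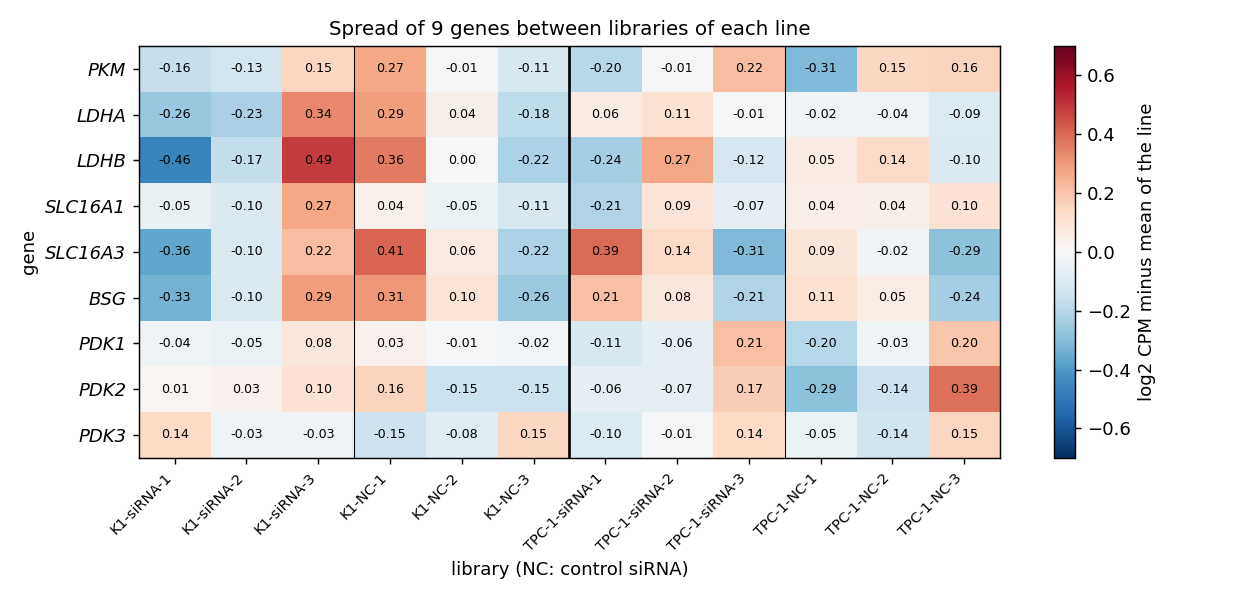
Deviation of each of 9 genes from the mean of its line, on log2 CPM scaled by TMM, in every library; red is above and blue below the mean of the line, and PDK4 is left out because TPC-1 held few counts. K1 siRNA replicate 3 and K1 control replicate 1 are red for LDHA, LDHB, BSG and SLC16A3, and K1 siRNA replicate 1 and K1 control replicate 3 blue.

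The genes with the pattern most like LDHA over the 12 libraries, after the mean of each line was subtracted, were UBE2R2, UBE2D2, PTTG1IP, HNRNPK and TSEN34 of 6315 genes with a mean of at least 5 FPKM, with Pearson r of 0.98 for each. In K1 alone the r of LDHA was 0.98 or 0.99 with these 5, over 6 libraries that share the spread just described, and in TPC-1 it ran from 0.78 (UBE2R2) to 0.97 (PTTG1IP). Those most like PDK1 were COPA, SLC25A30, PTPN9, SPIDR and DNAJC3, with r of 0.96 or 0.97.

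The wider pathway was followed through 48 listed genes, of which 38 were tested. None was called with TRIM35 siRNA in K1, in TPC-1 or in the difference between the lines, by edgeR, DESeq2 or limma, and none had an unadjusted p under 0.05 in edgeR. Between the lines 28 of the 38 differed in the control libraries, 12 higher and 16 lower in K1, and 28 in the siRNA libraries, also 12 higher and 16 lower, shares again to be read against the 67.9% and 68.3% of all genes.

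Of the 8 genes of the pyruvate dehydrogenase complex, its phosphatases and their regulator, 3 were higher and 1 lower in K1 with control siRNA. The list median log2 fold change was 0.17, beside 0.06 over all genes. For this list and the next, the shares of all genes called were 35.8% higher and 32.1% lower. PDPR, the regulatory subunit of the phosphatase, was higher by 0.98 (SE 0.17, adjusted p = 9.51e-05). PDP1, a phosphatase catalytic subunit that counters the kinases, was higher by 0.60 and PDHB, a subunit of the E1 enzyme, by 0.78, whereas PDHX, which anchors the E3 enzyme, had -0.69. Of 3 tested genes for pyruvate entry into mitochondria, 2 were lower: MPC2, a carrier subunit, by -1.62 (SE 0.23, adjusted p = 1.14e-05) and the outer membrane channel VDAC1 by -0.69, while MPC1 had 0.40 (adjusted p = 0.279).

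Of 6 tested genes for other enzymes of pyruvate and phosphoenolpyruvate metabolism, 4 were lower in K1 and none higher with control siRNA. Over all genes 67.9% were called, 32.1% lower and 35.8% higher. PCK2, mitochondrial phosphoenolpyruvate carboxykinase, averaged 2.29 ± 0.36 FPKM in K1 controls and 8.47 ± 0.91 FPKM in TPC-1 controls (SD, n = 3 each), a log2 fold change of -1.97 (SE 0.17, adjusted p = 3.87e-08). The malic enzymes ME2 and ME1 had -1.59 and -0.82. GPT2, an alanine aminotransferase, had -0.33 (adjusted p = 0.0290). GPT2 lost its call without TPC-1 control replicate 1 (adjusted p = 0.0575) or 2 (0.0877), without K1 control replicate 2 (0.0704) or 3 (0.115), with no filter on low counts (0.145) and under limma with a pseudocount of 0.1 (0.0507).

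A list of 10 related genes held enzymes and transporters of the same families, sodium-coupled lactate transporters and the chaperone EMB. Of them 4 were tested and all 4 differed, where 67.9% of all genes did. SLC5A12 passed the filter on low counts through its K1 counts only, and EMB was nearly absent from K1. The 4 of 4 is therefore no result about the list. EMB is given above. SLC5A12, a sodium-coupled lactate transporter, had 102 summed counts in K1 and 0 in TPC-1 with TRIM35 siRNA, and 140 in K1 and 0 in TPC-1 with control siRNA, at least 37.1-fold and at least 41.1-fold higher in K1 (floor of 3 counts summed over the TPC-1 group, with the K1 count taken as it stands). SLC16A7, which encodes MCT2, was higher in K1 by 1.13 (SE 0.17, adjusted p = 2.61e-05) and SLC16A4 lower, at -1.78 (SE 0.43, adjusted p = 0.0016). The lactate receptor gene HCAR1 had 72 summed counts in K1 and 0 in TPC-1 with TRIM35 siRNA, and 80 in K1 and 0 in TPC-1 with control siRNA, at least 26.2-fold and at least 23.5-fold higher in K1. Like SLC5A12, HCAR1 passed the filter through its K1 counts only, and both are among the pathway genes counted above as higher in K1.

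All 5 factors known to govern the choice between the mutually exclusive PKM exons differed between the control libraries, where 67.9% of all genes did. PTBP1 and HNRNPA2B1, repressors of the M1 exon, had log2 fold changes of -0.89 (SE 0.13, adjusted p = 1.98e-05) and -1.34 (SE 0.14, adjusted p = 6.54e-07), and SRSF3, which favours the M2 exon, had -1.88 (SE 0.15, adjusted p = 1.61e-08). RBM4, which favours the M1 exon, was higher by 1.16 (SE 0.16, adjusted p = 1.01e-05). SRSF3 averaged 39.95 ± 2.55 FPKM in K1 controls and 138 ± 6.68 FPKM in TPC-1 controls (SD, n = 3 each).

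Of 11 regulators of the hypoxia and MYC pathways, 5 were higher and 3 lower in K1 with control siRNA, where 67.9% of all genes were called. HIF1A averaged 259.3 ± 32.6 FPKM in K1 controls and 109.5 ± 20.6 FPKM in TPC-1 controls (SD, n = 3 each). MYC averaged 9.03 ± 1.22 FPKM in K1 controls and 41.5 ± 2.77 FPKM in TPC-1 controls (SD, n = 3 each), a log2 fold change of -2.29 (SE 0.15, adjusted p = 1.27e-09). EPAS1, which encodes HIF-2 alpha, averaged 39.3 ± 1.14 FPKM in K1 controls and 8.51 ± 0.97 FPKM in TPC-1 controls, a log2 fold change of 2.11 (SE 0.13, adjusted p = 7.86e-10). EGLN3, a prolyl hydroxylase, was higher in K1 by 4.58 (SE 0.34, adjusted p = 8.16e-09). It was near 0 in TPC-1 controls, with 23 summed counts and 0.057 FPKM, against 682 summed counts and 1.48 FPKM in K1 controls. Among the alternatives its log2 fold change ran from 1.23 to 5.04, so the size is uncertain. VHL, the ubiquitin ligase subunit that marks HIF for destruction, was higher in K1 by 0.76 (SE 0.11, adjusted p = 2.50e-05).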

How the data were processed

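Random-primed cDNA was made from TRIzol-extracted total RNA, per the labels' protocols. The submitters' processing notes name cutadapt 1.9.1 and hg38, whereas aligner, counter, annotation release and strandedness are not given in the sources used. The authors deposited 1 table of raw read counts and FPKM values for 61806 genes in 12 libraries. Each deposited FPKM value was within 0.01 of one recomputed from its count, the exonic size in the table and the library total.

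The count test was edgeR 4.0.16 (R 4.3.3): after filterByExpr (17447 genes kept) and TMM scaling, a quasi-likelihood model with a mean for each group covered all 12 libraries (8 residual degrees of freedom). A gene was called under an adjusted p of 0.05 (Benjamini-Hochberg over all genes tested), and intervals are at 95%. The step was tested on simulated data. Alternatives were DESeq2 1.42.0, its size factors, no filter, limma 3.58.1 on log2(FPKM + 0.1) or log2(FPKM + 1), a fit on the 2 groups compared, a replicate block and leaving out each library. Division by the principal transcript length and a block fitted within 1 line were added after the data were seen. Shares used FPKM and exact two-sided permutation tests. No pair of replicates agreed within sampling noise (chi-square per degree of freedom 3.97 to 58.9).

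Same-numbered TPC-1 libraries deviated together from their group means over all genes (r = 0.71, 0.31 and 0.80). That check cannot settle whether the numbers pair the TPC-1 samples. TPC-1 siRNA replicate 2 also had r of 0.20 with control replicate 1, and K1 libraries of different numbers reached 0.77 and 0.81. The labels do not say what same-numbered libraries share. The labels name 1 batch, so no batch comparison was made. The 10 genes and the pathway and marker lists were chosen with earlier results of these data known. Named genes are the 10, TRIM35, up to 4 called members per pathway list by adjusted p between the control lines, and the 5 genes most correlated with LDHA and with PDK1. MPC1 and HIF1A were named after their values were seen. Of 13 lists in all, the thyroid markers are described gene by gene and the other 5 lists of cell type markers by summed FPKM. The 4 epithelial markers summed to 49.5 to 76.8 FPKM in K1 and 37.1 to 46.8 in TPC-1. KRT18 made up most of the TPC-1 sum, with 41.0 FPKM in TPC-1 controls and 34.8 FPKM in K1 controls. Means in TPC-1 controls and K1 controls were 1.95 and 27.1 FPKM for KRT8, 0.037 and 2.31 FPKM for KRT19, and 0.19 and 0.45 FPKM for EPCAM. The 4 endothelial markers summed to 1.42 to 2.00 FPKM in K1 and 0.08 to 0.11 in TPC-1. KDR made up most of that sum in K1, with 1.44 FPKM in K1 controls.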

Additional observations from a re-analysis of the deposited data

How the results depend on the processing

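Calls between the lines held for PKM, LDHA, LDHB, PDK1 and PDK4 under each alternative run, and the number of the 10 genes called stayed between 6 and 8 with control siRNA and between 6 and 7 with TRIM35 siRNA; no alternative called any of the 10 for an siRNA effect. The exceptions for SLC16A1, SLC16A3, PDK2 and GPT2 are given with their results. Over all genes, edgeR with no count filter called 2 in K1, 2 in TPC-1 and 4 for the difference between the lines, and DESeq2 called 0 in K1, 2 in TPC-1 and 2 for the difference. Precision was limited by 3 libraries a group, and for PDK4 in TPC-1 by 5 and 16 counts.

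Signs turned only for differences near 0 that passed no test, and the cause was not tested. With TRIM35 siRNA in TPC-1, PKM was at 0.0044 by DESeq2 and by its size factors, 0.0135 without a filter, 0.0031 by limma with either pseudocount, 0.0039 with the replicate block and 0.0021 with the block in TPC-1 alone. With TRIM35 siRNA in K1, PDK1 was at 0.0105 by DESeq2, 0.0106 with its size factors, 0.0025 in a fit on the 2 groups and 0.0022 with the block in K1 alone. Between the lines with control siRNA, BSG was at 0.0029 by DESeq2, 0.0030 with its size factors, and 0.0566 and 0.0560 by limma with pseudocounts of 0.1 and 1, and PDK3 at 0.0568 and 0.0411 by limma. With TRIM35 siRNA, PDK3 was at 0.0344 by DESeq2, 0.0347 with its size factors, 0.0834 and 0.0599 by limma and 0.0172 in a fit on the 2 groups.

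Leaving out 1 library at a time also turned signs. For TRIM35 siRNA in K1 the log2 fold changes ran from low to high as PKM -0.19 to 0.025, LDHA -0.30 to 0.040, LDHB -0.36 to 0.13, SLC16A1 -0.021 to 0.16, SLC16A3 -0.31 to 0.012, BSG -0.26 to 0.050, PDK1 -0.027 to 0.024 and PDK3 -0.0064 to 0.14. In TPC-1 the ranges were PKM -0.11 to 0.11, LDHB -0.20 to 0.073, BSG -0.028 to 0.18, PDK1 -0.076 to 0.15, PDK2 -0.094 to 0.26 and PDK3 -0.040 to 0.12. For the difference of these effects, K1 minus TPC-1, they were PKM -0.21 to 0.026, LDHB -0.33 to 0.18, PDK1 -0.15 to 0.077, PDK2 -0.16 to 0.20, PDK3 -0.068 to 0.12 and TRIM35 -0.068 to 0.18. Between the lines, K1 over TPC-1, the ranges were PDK3 -0.078 to 0.046 with TRIM35 siRNA, and BSG -0.17 to 0.11 and PDK3 -0.13 to 0.042 with control siRNA. The siRNA difference in the LDHA share in K1 ran from -1.84 to 1.01 points and that in the PDK1 share in TPC-1 from -0.25 to 1.10 points.

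The replicate block changed no call of the 10 genes: 0 were called for siRNA effects, and 7 between the control lines and 6 between the siRNA lines, as without it. Fitted within TPC-1, the block called 8 of 14530 genes and 0 of the 9 genes tested. Same-numbered K1 libraries gave r of -0.77, 0.10 and -0.80, so their numbers do not pair the K1 samples by that check. K1 siRNA replicate 1 deviated together with control replicate 3 (r = 0.77), and siRNA replicate 3 with control replicate 1 (r = 0.81). Same-numbered libraries of K1 and TPC-1 gave r from -0.46 to 0.51. The block used the numbers all the same within K1 and across the lines, so there it is a weak check.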
